A study of Mus musculus with 6 samples.

Results

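Integrins, laminins and cadherins are the proteins by which a cell grips its matrix and its neighbours. The 22 genes described here are those of the 10189 genes in the deposited table whose symbols name an integrin alpha or beta subunit, a numbered integrin beta tail binding protein, a laminin chain or a numbered cadherin. The symbol pattern matched 25 rows, and the leukocyte integrin genes Itgam, Itgb2 and Itgae were left out of it. The rule uses symbols and no measured value, though it was written with earlier results of these data known. The 22 comprised 4 collagen-binding, 3 fibronectin-binding and 2 laminin-binding alpha subunits, 3 beta subunits, 1 beta tail binding protein, 5 laminin chains and 4 cadherins.

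RNA was sequenced from primary chondrocytes, the cells of cartilage, of 5-week-old C57BL/6 mice. The KO group (3 samples, genotype MiR-34a -/-) had lost both copies of the microRNA gene Mir34a in every cell of the body, and the wild-type group (3 samples) had not. The model name Mir34atm1.2 Mrl stands on the labels of both groups. Cartilage of hips and knees was pooled, digested, and its cells were grown untreated in serum to confluence, so that all 6 samples are cultured cells rather than cartilage. Whether the 3 samples of each genotype were separate animals or cultures is not on the labels, so every p-value covers the spread among these samples only, and part of it may be technical.

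The values were TMM-normalized CPM, read counts per gene scaled to an effective library size, and whole reads were recovered from them: 989217 to 5266617 per library, or 947081 to 1772185 without the rows Rn45s, Lars2 and Mir6236. In wild type 1, 59.1% of the reads lay on the ribosomal RNA precursor Rn45s. Mir34a had no row, so the genotype could not be checked on the deleted gene. Of 13 chondrocyte markers 12 had a row and none of these was at 0, with a summed level of 2336 to 3651 CPM in wild type and 3710 to 6961 CPM in KO. All 10 macrophage and leukocyte markers had a row too, with sums of 4916 to 5644 CPM in wild type and of 951, 14389 and 2978 CPM in KO 1, KO 2 and KO 3. Lyz2 alone made up most of these sums, with 12164.8 CPM in KO 2, and without it they were 1267 to 1834 CPM in wild type and 357, 2224 and 1220 CPM in KO. The groups overlapped for 9 of the 10, and Mrc1 was lower in every KO library, as were 9.57% of all genes. The neutrophil markers S100a8 and S100a9, the 2 of 5 with a row, summed to 53.9 to 72.2 CPM in wild type and had 0 reads in all 3 KO libraries. Every row of the table reached at least 7.35 CPM in its second-highest library. These 2 markers thus have a row only through wild type, and a gene without a row may lie below that floor rather than be absent. No epithelial or skeletal muscle marker had a row.

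An integrin is a dimer of 1 alpha and 1 beta subunit that spans the membrane and joins the matrix outside to the actin skeleton inside. The alpha subunit sets most of the choice of ligand: collagen for Itga1, Itga2, Itga10 and Itga11, the RGD sequence of fibronectin and vitronectin for Itga5 and Itgav, and laminin for Itga3 and Itga6. In cartilage, integrins hold the chondrocyte to its pericellular matrix and pass on mechanical load. Laminins are trimers of an alpha, a beta and a gamma chain and build basement membranes. Cadherins join cells to each other through calcium-dependent contacts, and N-cadherin (Cdh2) is known from the condensation of mesenchyme that comes before cartilage.

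A microRNA such as miR-34a represses transcripts whose 3′ UTR pairs with its seed, bases 2 to 8 from its 5′ end. The mature miR-34a-5p and the stretches around the perfect seed matches in the 22 genes are shown because they are where the deleted microRNA could pair with these transcripts. The microRNA sequence is from RefSeq (GRCm38.p6, chr4:150068473-150068494, plus strand) with its seed in capitals. The target stretches are read from GENCODE M21 transcripts (GRCm38) on the strand of the gene, with the seed match in capitals.
miR-34a-5p: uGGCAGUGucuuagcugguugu
Itga5: gcaataaaccccaccCACTGCCcccactg
Itga4: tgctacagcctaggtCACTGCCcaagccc
The Itga5 stretch lies at chr15:103344292-103344320 (minus strand), and its match ends 13 bases before the end of a 3′ UTR of 983 bases. The Itga4 stretch lies at chr2:79331989-79332017 (plus strand) in a 3′ UTR of 6508 bases. Neither match is followed by an A. These 2 of 22 genes (9.09%) held the match CACTGCC on the transcript strand, against 1716 of 9641 genes with an annotated 3′ UTR of at least 20 bases (17.8%). A match is a string of letters and not a shown site. Itga5 and Itga4 had log2 fold changes, KO against wild type, of −0.16 and 0.17.

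KO and wild type were compared to ask which adhesion genes differ in chondrocytes without miR-34a. No adhesion gene passed the test adjusted over all genes. Fold changes are differences of mean log2(CPM + 0.5), in which the added 0.5 draws those of low genes toward 0 compared with a smaller constant. They were tested two-sided with limma, p-values were adjusted by Benjamini-Hochberg over the 10189 genes, and an adjusted value under 0.05 made a call. Of the 22 genes, limma called 0 (background: 0.00981% of all genes called), edgeR on the recovered reads 0 (0.0196%), limma-voom 0 (0.00981%) and DESeq2 0 (1.13%, made up of 0.413% higher and 0.718% lower). By limma's p before adjustment, under 0.05, 3 were higher in KO (Itga3, Itga10 and Lamb2), or 13.6% against 4.64% of all genes, and 1 was lower (Itgb4), or 4.55% against 6.40% of all genes. Every row of the table reached 7.35 CPM in its second-highest library. The second-highest wild-type values of Itga3 and Itga10 were 4.57 and 6.1 CPM. Both thus have a row only through KO, so their place in the higher count is not support for a rise. The median log2 fold change was −0.00 over the 22 genes and 0.02 over all genes. By the sign of the fold change, 10 (45.5%) were higher and 12 lower, against 51.4% of all genes higher.

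The libraries of the groups did not overlap for 5 of the 22 genes. All 3 KO libraries lay above all 3 wild-type libraries for Itga3, Itga10, Lamb2 and Itgb1bp1, which is 18.2% of the 22 against 8.82% of all genes. They lay below for Itgb4 alone, 4.55% against 9.57% of all genes. These shares are a description. Itga3 and Itga10, which have a row only through KO, could hardly be seen other than higher in KO. No source used here gives the strand setting of the counting. Exons of 4 of the 22 genes (Itga4, Itgav, Itgb4 and Itgb1bp1) overlap exons on the opposite strand over 537 to 1124 bases. Whether reads there were told apart from those of the opposite gene depends on that setting and is uncertain. Among all annotated genes of the table the share with such an overlap was 36.2%.

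**Figure D1:**
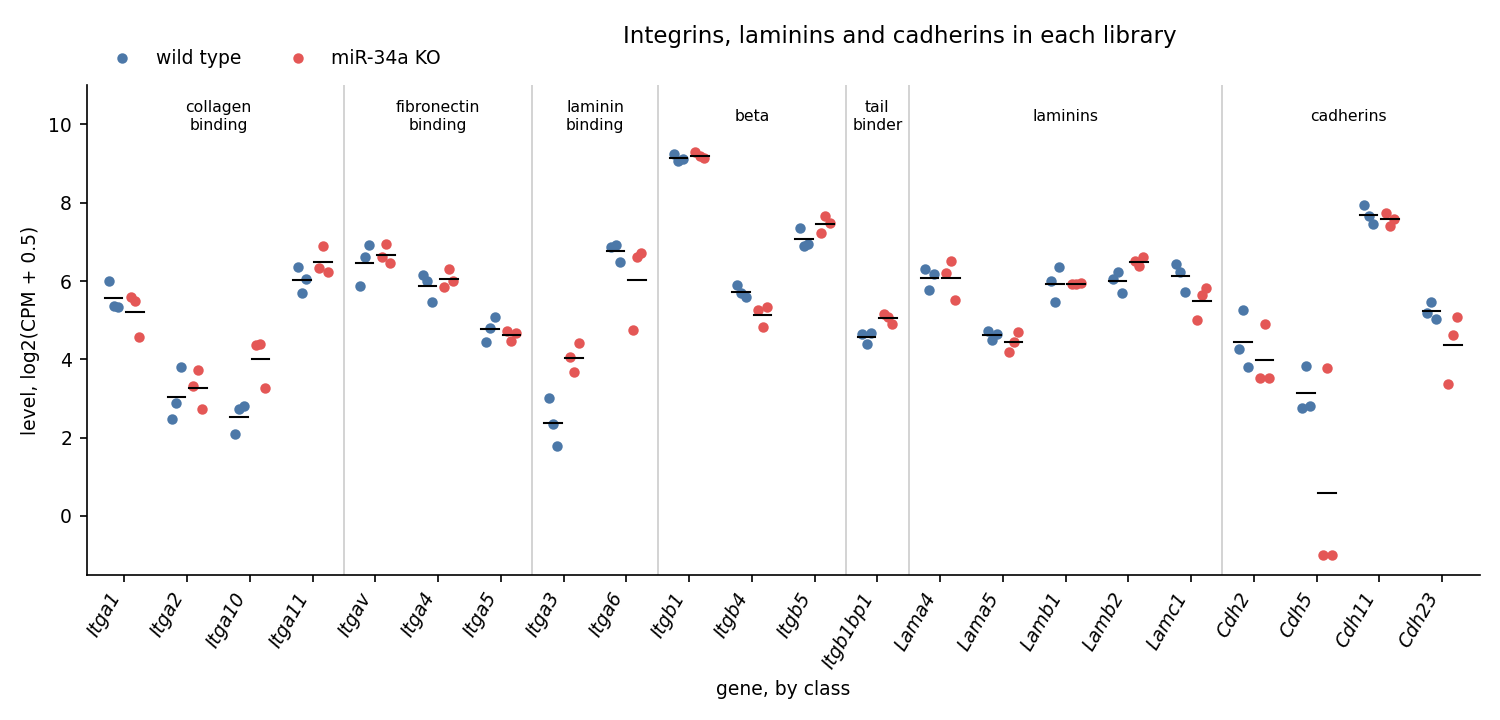
Level of each of the 22 genes in each library, as log2(CPM + 0.5) on the y axis, by class on the x axis. Points are libraries (blue wild type, red KO) and bars the mean of 3 libraries on this scale. Itga3, Itga10, Lamb2 and Itgb1bp1 are the genes with every red point above every blue one, and Itgb4 is the gene with every red point below.

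The collagen-binding subunits did not move together: Itga10 was about 3 times as high in KO, Itga11 was somewhat higher, Itga1 somewhat lower and Itga2 near its wild-type level, none past the adjusted threshold. Itga10 encodes the collagen receptor subunit typical of chondrocytes. It had 3.77, 6.09 and 6.45 CPM in wild type 1, 2 and 3, and 20.2, 20.6 and 9.18 CPM in KO 1, 2 and 3. All 3 KO libraries were above all wild-type libraries, and KO 3 was nearest to them. The means were 5.44 ± 1.46 CPM (SD, n = 3) and 16.7 ± 6.48 CPM (SD, n = 3), a ratio of 3.06. The log2 fold change was 1.48 (SE 0.52), with an unadjusted limma p of 0.0189 and an adjusted one of 0.351, and edgeR and DESeq2 gave adjusted p of 0.329 and 0.268. These values rest on few reads, 6 to 11 per wild-type library and 15 to 53 per KO library. The gene has a row only through KO. The summed chondrocyte markers were likewise higher in every KO library (3710 CPM or more) than in any wild-type library (3651 CPM or less). Taken singly, 6 of the 12 were so, against 8.82% of all genes, and the groups overlapped for the other 6. The part of the chondrocyte markers in the Itga10 value was not tested. Itga10 lies on chromosome 3 at 96645584 to 96664519 (plus strand, mm10).

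Itga11, the collagen receptor subunit of mesenchymal cells and fibroblasts, had 81.7, 51.0 and 66.2 CPM in the wild-type libraries and 80.2, 117.6 and 74.0 CPM in the KO libraries. KO 2 was the highest, and the groups overlapped in wild type 1. Its log2 fold change of 0.44 (SE 0.26) was 0.24 without KO 2 and 0.27 without wild type 2. Itga1, a receptor subunit for collagen IV and fibrillar collagens, had 64.1, 40.4 and 39.9 CPM in wild type and 48.1, 44.1 and 23.2 CPM in KO. Only KO 3 lay below the wild-type libraries, and the log2 fold change of −0.35 (SE 0.33) was −0.03 without KO 3 and −0.13 without wild type 1. Itga2, the collagen receptor subunit best known from platelets and epithelia, had 5.03, 6.86 and 13.5 CPM in wild type and 9.54, 12.7 and 6.12 CPM in KO. The groups were interleaved, and the log2 fold change of 0.21 (SE 0.57) turned to −0.08 without wild type 1 and −0.02 without KO 2. The median of the 4 was 0.33, and on leaving out single libraries it ran from 0.108 without KO 2 and 0.196 without wild type 2 to 0.521 without wild type 3 and 0.525 without KO 3.

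The groups overlapped for each of the 3 fibronectin-binding subunits, and none passed the threshold. Itga5, which pairs with Itgb1 as the classical fibronectin receptor and carries the seed match shown above, had 21.4, 27.4 and 33.4 CPM in wild type and 25.9, 21.6 and 25.1 CPM in KO. All KO values lay inside the wild-type range, with a log2 fold change of −0.16 (SE 0.28, 95% interval −0.79 to 0.475). Itgav, the vitronectin receptor subunit, had 58.4, 98.3 and 119.6 CPM in wild type and 98.1, 123 and 86.9 CPM in KO. The lowest value was that of wild type 1 and the highest that of KO 2. The log2 fold change of 0.20 (SE 0.28) turned to −0.09 without wild type 1 and was 0.064 without KO 2. Itga4, which binds fibronectin and the endothelial adhesion molecule VCAM-1 and is also carried by leukocytes, had 70.4, 64.0 and 43.4 CPM in wild type and 56.9, 78.4 and 63.0 CPM in KO. KO 2 lay above the wild-type range and the groups overlapped, and its log2 fold change of 0.17 (SE 0.25) turned to −0.04 without wild type 3. Itga4 shares 1124 exon bases with Cerkl on the opposite strand, and Itgav shares 634 with Gm13684. Itga8 and Itga2b had no row. The median of the 3 was 0.17, and −0.094 without wild type 1.

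Of the laminin-binding subunits, Itga3 was higher in every KO library than in any wild-type library and Itga6 stood low in KO 1 alone, neither past the adjusted threshold. Itga3, which pairs with Itgb1 as a laminin receptor, had 7.54, 4.57 and 2.93 CPM in wild type and 16.0, 12.2 and 20.8 CPM in KO. Every KO library lay above every wild-type library. The means were 5.01 ± 2.34 CPM (SD, n = 3) and 16.4 ± 4.28 CPM (SD, n = 3), a ratio of 3.26, from 5 to 12 reads per wild-type library and 25 to 42 per KO library. Itga3 also has a row only through KO. With a log2 fold change of 1.67 (SE 0.53), it had the smallest p of the 22 genes (limma unadjusted p = 0.0111, adjusted p = 0.315, DESeq2 adjusted p = 0.227). Itga3 lies on chromosome 11 at 95044474 to 95076801 (minus strand, mm10).

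Itga6, the laminin receptor subunit that pairs with Itgb1 or Itgb4, had 116, 119.6 and 89.7 CPM in wild type and 26.3, 97.5 and 105 CPM in KO. KO 1 alone stood far below, and KO 2 and KO 3 lay inside the wild-type range. The log2 fold change was −0.73 (SE 0.465) and −0.09 without KO 1. KO 1 also had the lowest summed level of macrophage and leukocyte markers, 951 CPM, and the highest of chondrocyte markers, 6961 CPM. The part of either in the Itga6 value was not tested. In RNA from a whole culture, fewer cells of a type and less RNA per cell cannot be told apart. Itga7 had no row.

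The beta subunits covered a wide range of levels, and the main one did not differ. Itgb1, the partner of most alpha subunits named here, had 604, 531 and 559 CPM in wild type and 622, 581 and 559.7 CPM in KO. The groups overlapped, and the 95% interval of the log2 fold change of 0.06 (SE 0.17) ran from −0.32 to 0.44. Itgb5, which pairs with Itgav as a vitronectin receptor, had 163, 119 and 122.5 CPM in wild type and 150.4, 200.4 and 179 CPM in KO. KO 1 lay below wild type 1, and the log2 fold change was 0.395 (SE 0.205) at an adjusted limma p of 0.501.

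Itgb4, the partner of Itga6 in hemidesmosomes of epithelia, had 59.1, 51.0 and 47.5 CPM in wild type and 37.8, 27.9 and 39.8 CPM in KO. All KO libraries lay below all wild-type libraries. The means were 52.5 ± 5.92 and 35.2 ± 6.34 CPM (SD, n = 3 each), a ratio of 0.669. The log2 fold change was −0.58 (SE 0.24, limma unadjusted p = 0.0377, adjusted p = 0.422) and −0.34 without wild type 1 and KO 2 together. It lies on chromosome 11 at 115974709 to 116008412 (plus strand, mm10), where 537 of its exon bases overlap B230344G16Rik. Of 6 epithelial markers, the keratins Krt5, Krt14, Krt8 and Krt18 among them, none had a row.

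Itgb1bp1, which encodes a protein that binds the tail of Itgb1 and holds it in a less active state, had 24.5, 20.6 and 25.2 CPM in wild type and 35.1, 33.3 and 29.4 CPM in KO. The groups did not overlap. With a log2 fold change of 0.47 (SE 0.25) the adjusted limma p was 0.508, and 598 of its exon bases overlap Asap2 or Cpsf3 on the opposite strand. Itgb3, Itgb6, Itgb8 and Itgb1bp2 had no row, and neither had Itga9 or Itgad.

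**Figure D2:**
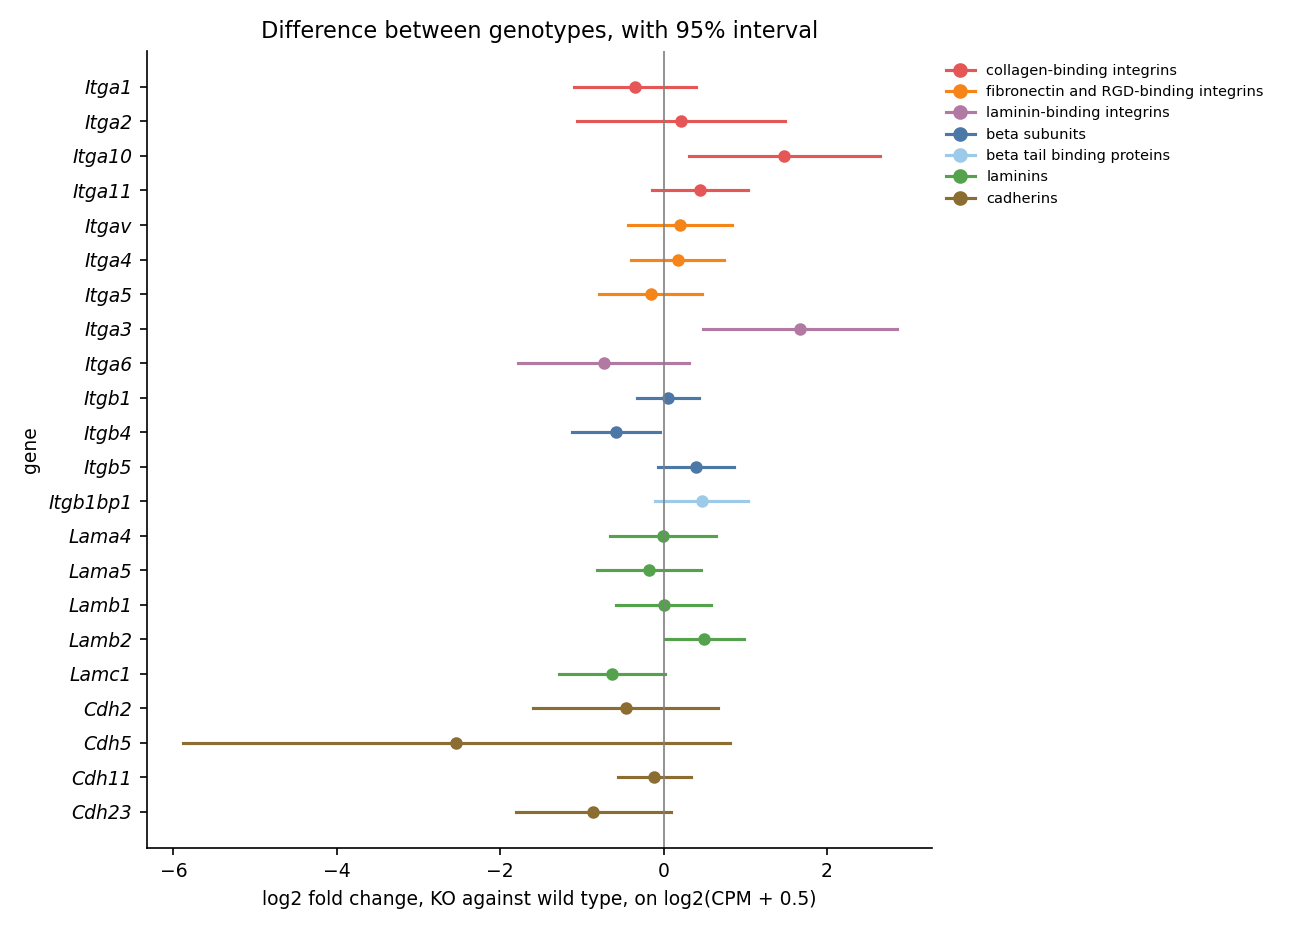
Log2 fold change of each gene, KO against wild type, on log2(CPM + 0.5), on the x axis, with the gene on the y axis. Points are limma estimates, lines their unadjusted 95% intervals, and colours the classes. The intervals of Itga3, Itga10 and Lamb2 lie above 0 and that of Itgb4 below 0, and 18 others cross it.

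Among the laminins, Lamb2 was higher in every KO library than in any wild-type library, though not past the adjusted threshold, and the other 4 chains overlapped. Lamb2 encodes the beta chain of basement membranes at synapses, kidney and vessel walls. It had 66.0, 74.7 and 51.6 CPM in wild type and 90.5, 82.3 and 97.3 CPM in KO. The KO libraries lay above the wild-type libraries without overlap. The means were 64.1 ± 11.6 and 90.0 ± 7.49 CPM (SD, n = 3 each), a ratio of 1.41, with a log2 fold change of 0.50 (SE 0.21, limma unadjusted p = 0.0432, adjusted p = 0.437). Lamb2 lies on chromosome 9 at 108479736 to 108490530 (plus strand, mm10).

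Lamc1, the gamma chain shared by most laminins, had 85.4, 74.7 and 52.2 CPM in wild type and 31.7, 49.5 and 56.3 CPM in KO. KO 1 and KO 2 lay below the wild-type libraries and KO 3 above wild type 3. A log2 fold change of −0.63 (SE 0.29) had an adjusted limma p of 0.462, and the value was −0.39 without KO 1. Lamb1, the beta chain of most embryonic laminins, had 63.5, 43.4 and 80.9 CPM in wild type and 59.9, 60.3 and 61.8 CPM in KO. The KO libraries were close to each other inside the wild-type range (95% interval of the log2 fold change −0.58 to 0.58).

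Lama4, the alpha chain of mesenchymal and vessel laminins, had 79.2, 54.1 and 71.5 CPM in wild type and 72.9, 91.1 and 45.3 CPM in KO. The KO values spread beyond the wild-type range on both sides, with a log2 fold change of −0.01 (SE 0.29). Lama5, the alpha chain of many adult basement membranes, had 25.8, 22.1 and 24.6 CPM in wild type and 17.6, 21.1 and 25.7 CPM in KO. Its groups overlapped, with a log2 fold change of −0.18 (SE 0.28). The median of the 5 chains was −0.01. Lama1, Lama2, Lama3, Lamb3 and Lamc3 had no row.

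All 4 measured cadherins had log2 fold changes below 0, with overlapping groups in each, and none passed the threshold. Cdh11, the cadherin of mesenchyme, osteoblasts and synovial fibroblasts, had 246, 203 and 175 CPM in wild type and 213, 169 and 192 CPM in KO. The groups overlapped (log2 fold change −0.11, SE 0.20), and the value was 0.02 without wild type 1. Cdh2, N-cadherin, had 18.8, 38.1 and 13.5 CPM in wild type and 11.1, 29.4 and 11.01 CPM in KO. Wild type 2 and KO 2 stood above the others of their genotype, and the log2 fold change of −0.46 (SE 0.50) was −0.05 without wild type 2 and −0.92 without KO 2.

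Cdh23, known from the tip links of hair cells in the inner ear, had 35.8, 43.4 and 32.2 CPM in wild type and 9.92, 24.0 and 33.6 CPM in KO. KO 3 lay inside the wild-type range and KO 1 was the lowest. The log2 fold change was −0.86 (SE 0.42, limma unadjusted p = 0.0704) and −0.37 without KO 1. Cdh5, the cadherin of endothelial cells, had 6.28, 13.7 and 6.45 CPM in wild type, and in KO 13.2 CPM in KO 2 and 0 reads in KO 1 and KO 3. A count of 0 allows up to 3 reads, or 1.14 CPM in KO 1 and 1.84 CPM in KO 3 (counting error only). The endothelial marker Pecam1 had 5.03, 6.09 and 27.6 CPM in wild type, and likewise 30.4 CPM in KO 2 and 0 reads in KO 1 and KO 3. Both markers with a row were thus at 0 in the same 2 libraries, whereas Kdr, Tek, Tie1 and Emcn had no row. The part of endothelial cells in the Cdh5 value was not tested. The fitted log2 fold change of Cdh5 was −2.54 (SE 1.49) with limma and −0.98 with edgeR, neither past the threshold. The remaining 19 numbered cadherins listed for comparison, E-cadherin (Cdh1) and Cdh15 of muscle among them, had no row.

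Levels of different genes were compared per length, as CPM per kb of merged exon. In wild type Itgb1 stood first with 138 ± 9.08 CPM per kb (SD, n = 3), then Itgb5 with 37.9 ± 6.85 and Cdh11 with 23.3 ± 4.01. The wild-type ranges of these 3 genes did not overlap each other or those of the genes below. From Itga11 (12.9 ± 2.99 CPM per kb) down, each gene's wild-type range overlapped that of the next, so that neighbours in the order did not differ beyond their spread. Itga3 and Itga10 were the lowest of the 22 in wild type, with 0.878 ± 0.409 and 1.05 ± 0.281 CPM per kb. In KO they stood at 2.87 ± 0.750 and 3.21 ± 1.25 CPM per kb, ranks 16 and 15. Both have a row only because their KO libraries reached the 7.35 CPM floor of the table. The change in rank is thus partly built in. The same 3 genes led in KO, where Itgb1 had 144 ± 7.83 CPM per kb.

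**Figure D3:**
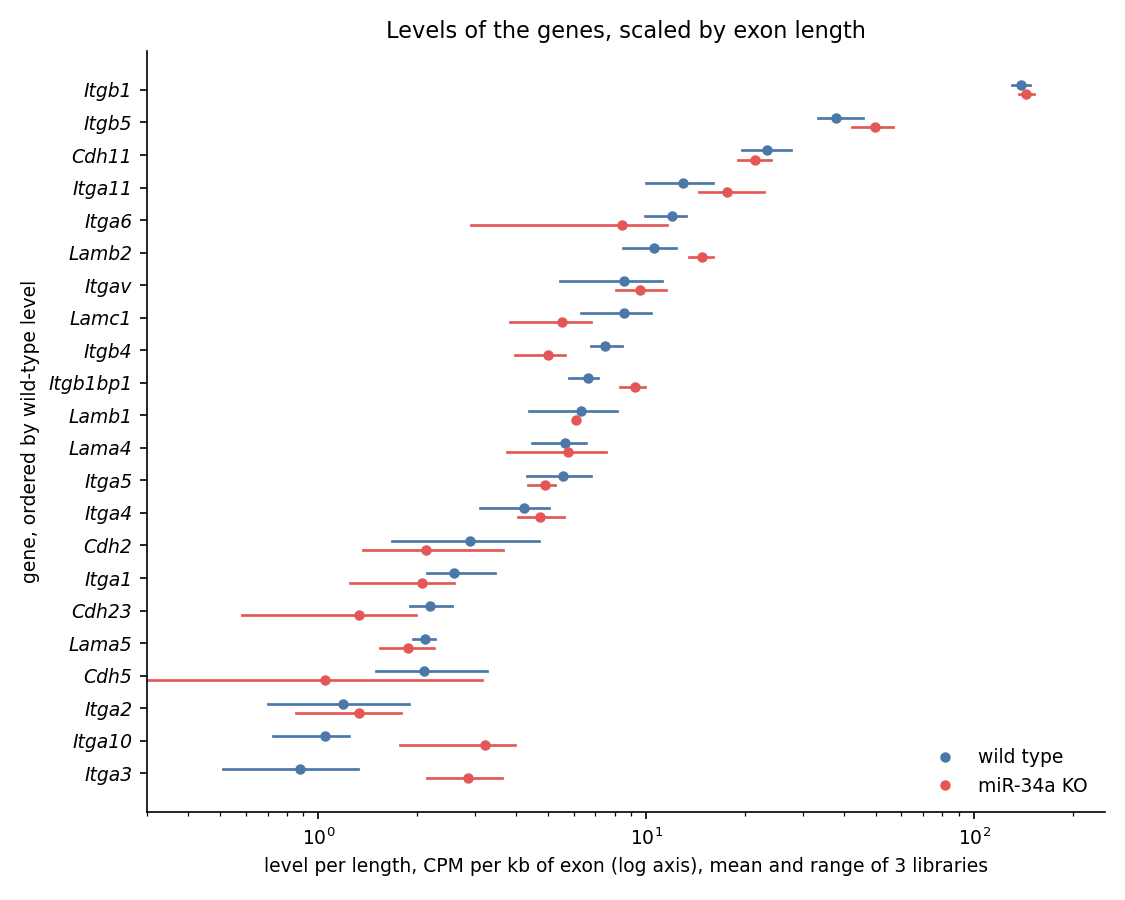
Level of each gene in CPM per kb of merged exon on a log x axis, with genes ordered by wild-type level on the y axis. Points are means and lines the range of 3 libraries (blue wild type, red KO), and the KO line of Cdh5 reaches 0 and is clipped at the left edge. Itgb1, Itgb5 and Cdh11 lead in both genotypes. Itga10 and Itga3 stand last in wild type only, and both have a row only through KO.

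The 9 measured alpha subunits together reached 49.0 ± 1.23 CPM per kb in wild type and 54.75 ± 9.41 in KO (SD, n = 3 each). Itgb1 alone was 2.82 ± 0.132 times that sum in wild type and 2.69 ± 0.514 times in KO. KO 2, with 65.4 CPM per kb, had the highest alpha sum. Lengths taken from the longest transcript instead gave ratios of 2.07 and 2.14.

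Shares within a library do not depend on the scaling between libraries. Among the 4 collagen-binding subunits, Itga11 held most of the per-length level, 72.4% ± 3.61 in wild type and 73.1% ± 6.13 in KO (SD, n = 3 each). The share of Itga10 was 3.50%, 8.24% and 6.84% in the wild-type libraries and 16.6%, 12.8% and 9.67% in the KO libraries. That of Itga1 was 16.6%, 15.2% and 11.8% in wild type and 11%, 7.64% and 6.83% in KO. Neither overlapped between genotypes. Of the summed level of Itga6 and Itga3, Itga6 held 90.7%, 94.3% and 95.1% in wild type and 51.0%, 83.4% and 76.1% in KO, again without overlap. Between these 2 subunits, a larger share of Itga3 is a smaller share of Itga6. Itgb4 held 4.07% ± 0.242 of the 3 beta subunits in wild type and 2.53% ± 0.504 in KO. The exact permutation test, two-sided, gave p = 0.10 for these 4 shares, the smallest p that 3 against 3 samples can give. Over the 23 shares compared the lowest Benjamini-Hochberg adjusted p of the exact test was 0.383. Within all measured alpha subunits, the shares of Itga6 and Itga1 overlapped between genotypes (exact permutation p = 0.2 and 0.4). Those of Itga10 and Itga3 did not (exact permutation p = 0.1 each), and both genes have a row only through KO. For Lamb2 within the 2 beta chains the share was 62.5% ± 11.4 in wild type and 70.7% ± 1.52 in KO, with overlap.

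**Figure D4:**
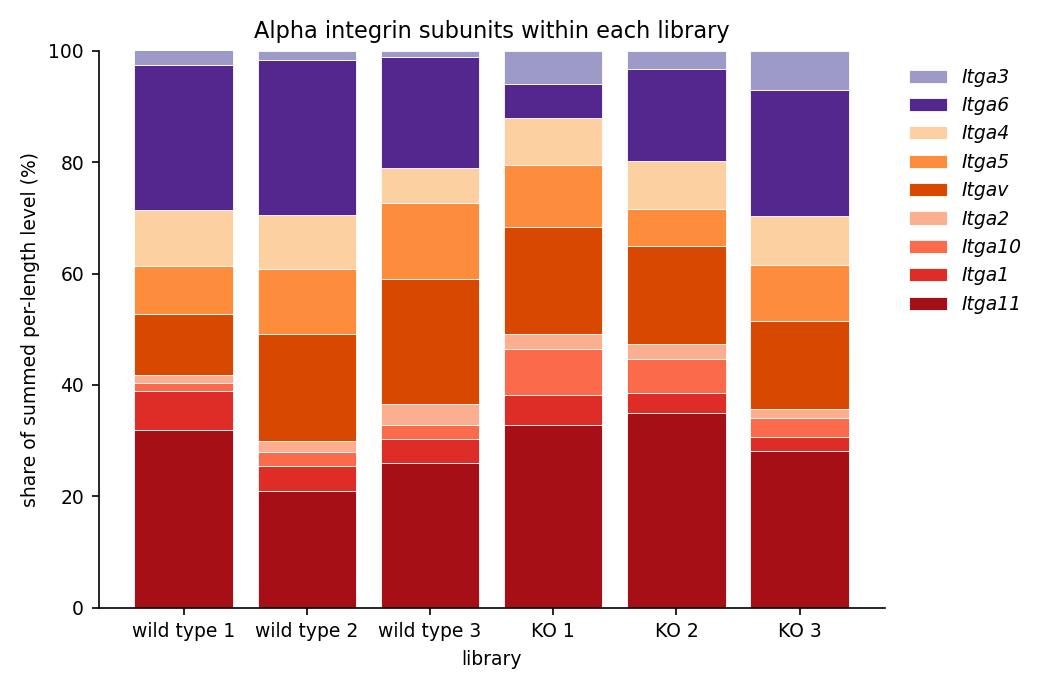
Share of each alpha subunit in the summed per-length level (CPM per kb) of the 9 measured alpha subunits, in percent on the y axis, for each library on the x axis. Reds are collagen-binding, oranges fibronectin-binding and purples laminin-binding subunits. Itga6 stands at 6.13% in KO 1, and Itga10 takes 1.46% to 2.50% in wild type and 3.45% to 8.19% in KO.

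Other genes of the adhesion machinery came from lists written without choosing members by how they moved, though earlier results of these data were known. The shares over all genes, to be set beside the counts of every list, were as follows. At an unadjusted limma p under 0.05, 4.64% were higher and 6.40% lower. Limma called 0.00981% and DESeq2 1.13%. Of 16 measured integrin activators and focal adhesion adaptors, none was called by limma, and an unadjusted p under 0.05 was reached by 1 in the higher and 2 in the lower direction (median log2 fold change −0.13). Fermt2, which encodes kindlin-2, an activator of the beta tail, had 69.7, 60.9 and 56.9 CPM in wild type and 41.2, 37.7 and 30.0 CPM in KO. All KO libraries lay below wild type. The log2 fold change was −0.78 (SE 0.23) at an adjusted limma p of 0.294. Vcl, which encodes vinculin of focal adhesions, had −0.45 (SE 0.18) and shares 2090 exon bases with Ap3m1 on the opposite strand. The adaptor gene Tns1 had 1.45 (SE 0.535), and Kank2 0.59 (SE 0.30) with overlapping groups.

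Of 20 measured signalling kinases and scaffolds, limma called 0, with 1 higher at an unadjusted p below 0.05, the kinase gene Pak1 (log2 fold change 0.90, SE 0.31). Pak2, Ilk and Fyn had −0.41, −0.32 and 0.54, and Ilk shares 2461 exon bases with Taf10 and Rrp8 on the opposite strand. A list of negative regulators and tail binders, which also held Rap1a and Rap1b, had 10 measured genes. Tln1 was counted both there and among the activators. Of the 10, limma called 0 and DESeq2 1. That gene was Itgbl1, which encodes a secreted protein with integrin-like repeats and whose symbol the pattern did not match. It had 39.6, 25.9 and 20.5 CPM in wild type and 129, 59.3 and 85.6 CPM in KO, without overlap. The adjusted p was 0.240 with limma and 0.00747 with DESeq2, for a log2 fold change of 1.64 (SE 0.34). The others of smallest p in that list, Filip1l, Cib1 and Sharpin, had −0.54, −0.67 and −0.36. Of 9 measured catenins and cadherin partners, limma called 0 and none passed an unadjusted p of 0.05 either. Ctnnb1, which encodes beta-catenin, had 0.30 (SE 0.18) and shares 759 exon bases with Ulk4, and Pvrl3, Ptpn1 and Vezt had 0.89, −0.37 and −0.34.

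Among 23 measured integrin ligands of the matrix (median log2 fold change 0.02), limma called 0 and DESeq2 4, against 1.13% of all genes by DESeq2. By unadjusted limma p under 0.05 there were 2 with higher and 5 with lower values, against 4.64% and 6.40% of all genes. Fbn1, which encodes the RGD-bearing microfibril protein fibrillin-1, had −1.87 (SE 0.32), with an adjusted p of 0.164 in limma and 5.2e-05 in DESeq2, and 2442 of its exon bases overlap Gm9913. Ibsp, bone sialoprotein with an RGD site for Itgav, had 1.84 (SE 0.38), Edil3, another RGD protein, 1.17 (SE 0.29), and Col3a1, a fibrillar collagen, −0.93 (SE 0.26). Of 13 measured basement membrane partners of laminin, limma called 0 and DESeq2 1 (Col4a5), and 2 in each direction reached an unadjusted limma p under 0.05. Col4a1, the collagen IV chain of all basement membranes, had 109, 96.0 and 121 CPM in wild type and 8.78, 79.9 and 32.4 CPM in KO. On the log2 scale the difference was −1.90 (SE 0.63), and that of its partner Col4a2 −1.94 (SE 0.49). Both were lowest in KO 1, as Lamc1 was. Col4a5 had 3.225 (SE 0.95), with 0 reads in wild type 1, and Smoc2 1.56 (SE 0.47). With 0, 2.29 and 4.10 CPM in wild type, Col4a5 has a row only through KO.

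A list of desmosomal cadherins and protocadherins had 9 measured genes, all of them Pcdh, Fat or Celsr genes and none a desmosomal cadherin. Of the 9, limma called 0, and 1 was higher at an unadjusted p below 0.05. That gene was Pcdh7 (log2 fold change 1.15, SE 0.51), which shares 2235 exon bases with 4932441J04Rik. Pcdh19, Pcdh9 and Fat1 had −2.27 (SE 1.13), 2.06 (SE 1.14) and 0.40 (SE 0.23) with overlapping groups. The first of these had 0 reads in KO 3, and Pcdh9 had 0 reads in wild type 2. On the opposite strand, Pcdh19 shares 57 exon bases with Gm26851 and Fat1 487 with Gm2366. For comparison, the leukocyte integrin genes left out, none of them called, stood at −1.18 (SE 0.52) for Itgb2, −0.995 (SE 0.62) for Itgam and −1.63 (SE 0.645) for Itgae on the log2 scale. Across KO 1, KO 2 and KO 3, Itgam reached 31.7, 277 and 119.9 CPM against 184 to 232 CPM in wild type. Itga4 had 56.9, 78.4 and 63.0 CPM in the same KO libraries, in the same order but over a narrower range. Mural cell markers, of which 6 of 7 had a row and none was at 0, summed to 392 to 507 CPM in wild type and 209 to 322 CPM in KO. Acta2 made up most of the sums, and without it they were 113 to 173 and 130 to 149 CPM. Singly, 3 of the 6 were lower in every KO library: Acta2, Myh11 and Cnn1, with log2 fold changes of −1.63, −1.48 and −1.93. Cspg4 was higher in every one (1.115). Lmod1 (−1.44) and Pdgfrb (0.81) overlapped. All 6 proliferation markers had a row and summed to 1458 to 1722 CPM in wild type and 765 to 1063 CPM in KO. Singly, 4 of them were lower in every KO library. Over all genes, 9.57% were lower and 8.82% higher in every KO library. The part of leukocytes, neutrophils, mural cells or proliferation in the values of the 22 genes was not tested.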

How the data were processed

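The deposited values are a signal: counts that the authors put on a TMM-normalized CPM scale, per the name of the table. HISAT2 2.1.0, StringTie 1.3.5, cutadapt 1.18, edgeR, bcl2fastq and the build mm10 stand, without roles, in the submitters' processing notes. Annotation, strand setting and filter: not given in the sources used here. Dividing each column by its step gave whole reads for 100% of its values (tolerance 0.001 reads). The design assumed CPM. The values of wild type 1 sum to more than unscaled CPM would, because they are scaled to an effective library size of 1591738 against 5266617 reads. The unit is called a signal for that reason, and the same log-scale test was kept. Of the 6 column names 5 matched a title and 1 differed by 1 character.

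All 10189 genes were fitted with limma 3.58.1 (R 4.3.3, intensity trend). Recovered reads were tested with edgeR 4.0.16 (quasi-likelihood), DESeq2 1.42.0 and limma-voom, and called 2, 115 and 1 genes. Coordinates, exon lengths and UTRs are from GENCODE M21, matched for 10118 genes (99.3%). Exact tests used scipy 1.17.1 under Python 3.11.15, and plots matplotlib 3.10.9. The procedure was tested on simulated data. Replicates differed beyond sampling noise (chi-square of at least 10.5 per degree of freedom), so none was counted once with another. The genes and lists were chosen with earlier results of these data known. By rule, all 22 genes and the up to 4 of smallest p per further list are named. Alternatives were other pseudocounts, filters, scalings, limma settings and tests, a replicate block, leaving out libraries, and other lengths and seed matches.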

Additional observations from a re-analysis of the deposited data

How the results depend on the processing

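Under the 20 alternatives no member was called, and the lowest adjusted p was 0.227. Of 438 member values 413 kept their direction, and 16 of 22 members kept it throughout. Leaving out each library gave 1 to 3 members higher and 0 to 3 lower at an unadjusted p below 0.05, with 1 higher and 3 lower without KO 3, and 0 lower on leaving out wild type 1 alone or wild type 2 alone. The higher count was 1 with limma-voom and without wild type 1 and KO 2 together, a choice made after seeing the data. The lower count was 0 without a trend, with array weights, with DESeq2 and without these 2 libraries, 2 with robust empirical Bayes (also added later) and 3 with limma-voom. Without these 2 libraries the median was −0.12 over all members, −0.23 for fibronectin-binding integrins and −0.11 for laminins, and Cdh11 had 0.10, Itga2 −0.32, Itgav −0.23 and Lamb1 0.037. The beta subunit median was 0.28 with quantile normalization, and the laminin median −0.14 with array weights. Leaving out single libraries gave medians of −0.094 to 0.243 for fibronectin-binding integrins and −0.239 to 0.034 for laminins, and log2 fold changes of −0.228 to 0.017 for Cdh11, −0.082 to 0.588 for Itga2, −0.035 to 0.311 for Itga4, −0.094 to 0.420 for Itgav, −0.229 to 0.272 for Lama4 and −0.239 to 0.206 for Lamb1. Lama4 had 0.007 with median-of-ratios scaling, 0.036 with quantile normalization, 0.033 with edgeR, 0.050 with 3 rows out of the edgeR library sizes, 0.050 with DESeq2 and 0.002 with limma-voom. Lamb1 had 0.015 with median-of-ratios scaling, 0.035 with quantile normalization and 0.000 with a pseudocount of 0.1. The cause of these moves was not tested. Matches to positions 2 to 7 of miR-34a were found in 6 members (27.3%, against 35.4% of all genes with a 3′ UTR). The 6 were Cdh11, Itga2, Itga4, Itga5, Itga6 and Itga10. Matches to positions 2 to 8 then A were found in 0, against 6.28% of all genes with a 3′ UTR. With the replicate block 2 members were higher and 1 lower at an unadjusted p below 0.05, and 0 were called. Correlations of same-numbered deviations were 0.018, 0.065 and −0.056, inside the span of differently numbered ones (−0.100 to 0.094). Same-numbered samples thus showed no shared deviation, though such correlations cannot tell whether samples were paired. Few reads limit Itga2, Itga3, Itga10 and Cdh5.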
